A study of Mus musculus with 10 samples.

Results

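The genes measured here were the standard subunits and dedicated assembly chaperones of the proteasome, chosen by symbol. They were all genes of the deposited count matrix named Psma, Psmb, Psmc, Psmd or Psmg followed by a number, except the catalytic subunits Psmb5 to Psmb7 and the immunosubunits Psmb8 to Psmb10. This rule gave 37 of 48476 genes and used no measured value. By role there were 8 genes of the alpha ring, 5 of the beta ring, 6 ATPases and 3 other subunits of the base, 8 of the lid, 3 chaperones of the regulatory particle and 4 chaperones of core assembly. Of the 37 genes, 35 reached a mean of 1 TPM (a level per length, scaled to the same total in every library), and all 35 were at 1 or above in every library.

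RNA-seq was performed on mouse embryonic fibroblasts (MEFs) of the strain CBA/CaJ X C57BL/6J, prepared from E13.5 embryos. An Oct4-GFP reporter in these cells is described in the methods. Cells of both arms received retroviruses for Oct4, Klf4 and Sox2 (OKS), which reprogram fibroblasts towards pluripotency, and were kept in iCD1 medium. The control arm also received DsRed, a fluorescent protein (OKS+DR), and the other arm received FoxO6, a forkhead transcription factor (OKS+FoxO6). Each arm was sampled at day 0, 1, 3, 5 and 7, with 1 library per arm and day and so 10 libraries without replicates. Foxo6 itself was at 0.61 to 2.29 TPM in the OKS+DR libraries and at 762 to 1356 TPM in the OKS+FoxO6 libraries, day 0 included. Retroviral delivery is not limited to one cell type, and nothing in the labels says whether the days came from separate cultures.

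The proteasome degrades proteins tagged with ubiquitin. Its core particle is a barrel of stacked alpha and beta rings, in which the alpha subunits form the gate and a few of the beta subunits cut the substrate. The regulatory particle sits on the barrel: ATPases of the base unfold the substrate, other base subunits bind ubiquitin, and the lid removes it. Chaperones build both particles and are not part of the finished complex. Mammalian cells are known to raise the subunit genes together through Nfe2l1 (Nrf1) when proteolysis fails, and interferon signals are known to exchange the catalytic subunits for immunosubunits.

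The libraries held 1208379 to 2225750 expected counts (median 1601151), and a standard gene among these 35 had 9 to 894 counts in a library (median 178). Other cells and states moved along the course. The summed TPM of 8 fibroblast markers ranged from 693 to 3990 in OKS+DR and from 1010 to 3517 in OKS+FoxO6, and 7 of the 8 fell along the days. The summed TPM of 4 epithelial markers ranged from 11.2 to 608 in OKS+DR and from 3.14 to 132 in OKS+FoxO6, and that of 4 pluripotency markers from 0.78 to 246 and from 0 to 33.1. The 4 macrophage markers summed to 7.95 to 53.7 TPM in OKS+DR and 16.2 to 24.9 TPM in OKS+FoxO6, nearly all of it Cd68 (7.95 to 52.6 TPM), while Ptprc, Adgre1 and Csf1r stayed below 1 TPM in every library. The 4 endothelial markers summed to 18.7 to 53.0 TPM and 28.8 to 104 TPM. Most of this was Tek, at 16.8 to 104 TPM, which was higher in OKS+FoxO6 (0.96 on the log2 scale, adjusted p = 0.00112 by edgeR) and rose along the days (0.20 per day, adjusted p = 0.0135 by edgeR). Pecam1 reached 5.73 TPM, and Cdh5 and Emcn did not exceed 1.24 TPM. In such bulk samples fewer cells of a type and less RNA per cell cannot be told apart.

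The standard subunit genes were among the steadily expressed genes of this course. Over the 10 libraries, the SD of log2(TPM + 1) had a median of 0.21 over the 35 genes, beside 0.38 over all 7580 genes whose mean TPM reached 20, and 31 of the 35 lay below that second median. The smallest SD was 0.09 for Psmd6, a lid subunit, and the largest was 0.55 for Psmg4, a core assembly chaperone. Counting error alone would give a median SD of about 0.11.

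The 28 ring, base and lid genes among the 35 lay within a 3.23-fold range of mean TPM, from 97.2 for Psmd11 to 314 for Psma3. The 7 chaperone genes lay below all of them, from 21.5 for Psmd10 to 61.8 for Psmg4. In each library the order of the 28 genes had a Spearman correlation of 0.84 to 0.96 with their mean in the other 9 libraries, a description over genes that share libraries. Levels of single libraries are given in the order of days 0, 1, 3, 5 and 7.

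**Figure D1:**
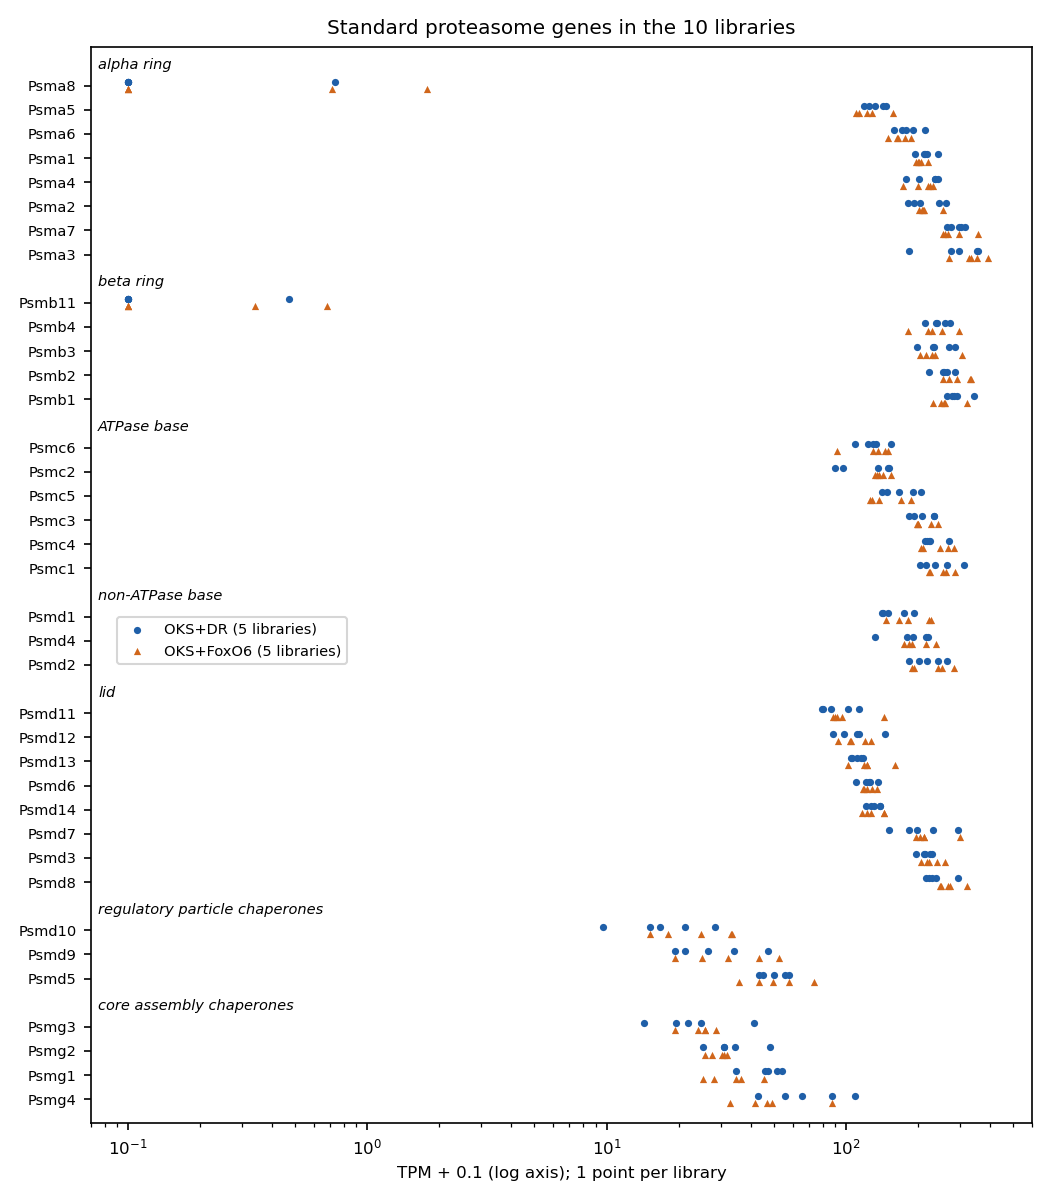
TPM of the 37 standard proteasome genes (rows, grouped by role and ordered by mean) in each of the 10 libraries, on a log axis after adding 0.1, with circles for OKS+DR and triangles for OKS+FoxO6. The 28 expressed ring, base and lid genes have higher means than the 7 chaperone genes, though single libraries of Psmg4 reach into their range. The arms overlap in every row, and Psma8 and Psmb11 sit at the left edge.

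In the alpha ring, Psma3 was highest. It was at 357, 352, 183, 298 and 275 TPM in OKS+DR and at 391, 333, 270, 327 and 352 TPM in OKS+FoxO6. The arms overlapped, and the day 3 library of OKS+DR was the lowest of the 10. Psma5 was the lowest of the 7 alpha genes that were expressed, at 143, 147, 124, 119 and 133 TPM in OKS+DR and at 158, 111, 129, 113 and 122 TPM in OKS+FoxO6. Its arms overlapped too. Psma8, an alpha subunit known from the testis, had 5 counts in all, at most 3 in a library and none in 7 libraries.

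In the beta ring, the structural subunits Psmb1 to Psmb4 had nearly equal means, 241 to 279 TPM. Psmb1 was at 284, 344, 264, 292 and 279 TPM in OKS+DR and at 261, 251, 258, 232 and 322 TPM in OKS+FoxO6. It was lower in OKS+FoxO6 on every day except day 7, and the ranges overlapped. Psmb4 was at 237, 261, 241, 273 and 215 TPM in OKS+DR and at 220, 298, 230, 181 and 251 TPM in OKS+FoxO6. It was lower in OKS+FoxO6 on days 0, 3 and 5 and higher on days 1 and 7. Psmb11, the subunit of the thymus proteasome, had 4 counts in all, at most 2 in a library.

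In the base, the ATPase Psmc1 had the highest mean of its ring. It was at 265, 311, 235, 215 and 205 TPM in OKS+DR and at 286, 262, 254, 223 and 225 TPM in OKS+FoxO6. The libraries of days 5 and 7 were the lowest in both arms. The ATPase with the lowest mean, Psmc6, was at 134, 155, 130, 109 and 124 TPM in OKS+DR and at 146, 151, 137, 129 and 92.1 TPM in OKS+FoxO6. Of the other base subunits, the scaffold Psmd1 had the lowest mean, with 193, 175, 150, 143 and 142 TPM in OKS+DR and 222, 227, 183, 166 and 147 TPM in OKS+FoxO6. It was higher in OKS+FoxO6 on all 5 days, but the ranges overlapped.

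In the lid, the scaffold subunit Psmd11 had the lowest mean, with 113, 79.3, 80.1, 102 and 86.9 TPM in OKS+DR and 144, 87.9, 96.2, 92.1 and 89.8 TPM in OKS+FoxO6. Its highest library in each arm was that of day 0. Psmd8 had the highest lid mean, with 294, 216, 237, 229 and 222 TPM in OKS+DR and 320, 266, 250, 248 and 273 TPM in OKS+FoxO6. Like Psmd1 it was higher in OKS+FoxO6 on all 5 days, with overlapping ranges. Psmd14, the lid's deubiquitinase, ranged from 121 to 139 TPM in OKS+DR and from 116 to 144 TPM in OKS+FoxO6.

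These genes lie on 16 chromosomes, so their levels are not those of one locus. The stretches before the start sites are shown for genes that the results turn on: Psmd2, the base scaffold with a slope along the days, Psmc2, the ATPase with the smallest interaction p, Psmd4, the ubiquitin receptor of the base, Psmd11 and Psma3, the lowest and highest of the subunits, and Psmg4, the most variable gene. Each line gives the 100 bases before the RefSeq start site (GRCm38.p6), 5′ to 3′ on the strand of the gene. For Psmc2 the upstream of its RefSeq starts was used. Capitals mark matches to the letters searched on both strands: CCAAT (the CCAAT box), TGACNNNGC and TGAGNNNGC (cores of the antioxidant response element, to which Nrf1 and Nrf2 bind), GTAAACA (a forkhead site), CCGGAAGT (an ETS site) and part of the ZNF143 site. The letters of these patterns do not overlap one another in the lines shown.
Psmd2 (chr16:20651552-20651651, plus strand): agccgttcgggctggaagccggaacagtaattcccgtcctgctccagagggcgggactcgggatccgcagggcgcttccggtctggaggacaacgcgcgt
Psmc2 (chr5:21785175-21785274, plus strand): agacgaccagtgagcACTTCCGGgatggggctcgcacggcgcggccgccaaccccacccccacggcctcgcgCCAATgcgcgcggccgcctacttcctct
Psmd4 (chr3:95042615-95042714, minus strand): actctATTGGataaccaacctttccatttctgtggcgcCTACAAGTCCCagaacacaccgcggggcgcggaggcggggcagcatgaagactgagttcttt
Psmd11 (chr11:80428515-80428614, plus strand): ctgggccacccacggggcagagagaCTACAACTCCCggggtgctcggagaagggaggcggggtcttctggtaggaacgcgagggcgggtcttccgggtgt
Psma3 (chr12:70974523-70974622, plus strand): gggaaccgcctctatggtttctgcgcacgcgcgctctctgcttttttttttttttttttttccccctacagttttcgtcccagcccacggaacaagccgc
Psmg4 (chr13:34162864-34162963, plus strand): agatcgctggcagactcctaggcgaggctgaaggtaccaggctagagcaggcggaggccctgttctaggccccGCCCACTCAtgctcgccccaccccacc

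RefSeq promoters, from 250 bases before to 50 bases after the start, were matched for 30 of the 37 genes. CCAAT was present for 12 of the 30 genes (40.0%), beside 41.1% of all 27025 genes with a promoter in the table. The pattern TGAGNNNGC was present for 12 genes (40.0%, beside 19.8%), CCGGAAGT for 7 (23.3%, beside 4.31%), TGACNNNGC for 3 (beside 14.0% of all genes) and the part of the ZNF143 site for 3 (beside 2.32%). None of the 30 genes held GTAAACA, which 4.05% of all genes held. The promoters of the standard genes had a median GC content of 58.2% and a median of 19.5 CpG, beside 52.7% and 7 over all promoters, so the letters of a pattern and base composition were not separated. These are matches of letters in a window and not binding sites.

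Summed over the 37 genes, the standard set took 0.58% of all TPM and was level between the arms until day 5. The sum was 6403, 6129, 5500, 5579 and 5329 TPM in OKS+DR and 6386, 6036, 5558, 5336 and 6200 TPM in OKS+FoxO6. The ratio of OKS+FoxO6 to OKS+DR was 0.957 to 1.01 on days 0 to 5 and 1.16 on day 7. The highest library was 1.20-fold above the lowest. The ratio of the arm means, OKS+FoxO6 over OKS+DR, was 1.02.

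**Figure D2:**
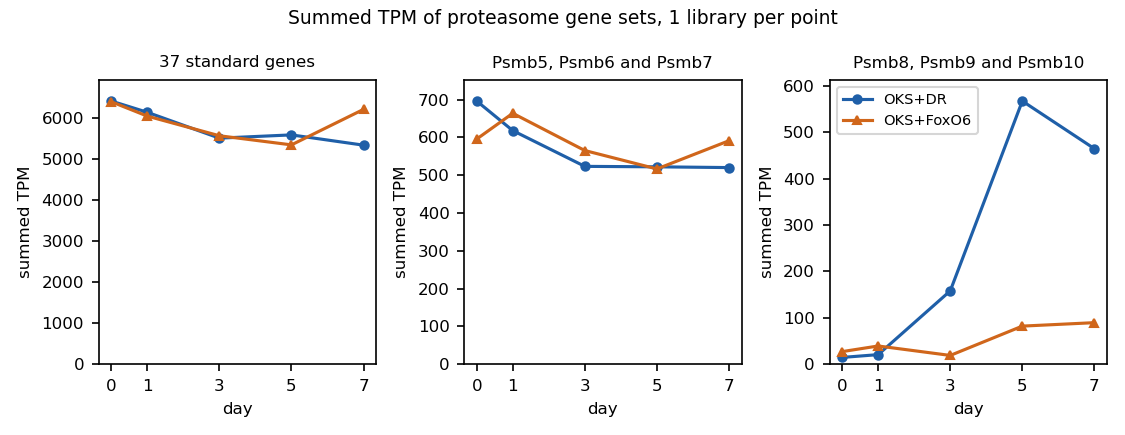
Summed TPM by day (1 library per point) of the 37 standard genes, of the catalytic subunits Psmb5 to Psmb7 and of the immunosubunits Psmb8 to Psmb10, for OKS+DR (circles) and OKS+FoxO6 (triangles). The standard sum stays between 5329 and 6403 TPM in both arms, while the immunosubunits reach 568 TPM in OKS+DR at day 5 against 81.9 TPM in OKS+FoxO6.

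The standard set is assembled with catalytic subunits or with immunosubunits. The summed TPM of the catalytic subunits Psmb5, Psmb6 and Psmb7 was 696, 618, 523, 522 and 520 in OKS+DR and 596, 664, 565, 517 and 591 in OKS+FoxO6. Its highest library was 1.35-fold above the lowest, and none of the 3 genes passed the test of the arm shift or of the slope. The immunosubunits summed to 14.4, 20.4, 158, 568 and 465 TPM in OKS+DR and to 26.9, 39.1, 18.7, 81.9 and 89.4 TPM in OKS+FoxO6. At day 5 they made up 52.1% of the TPM of both catalytic sets in OKS+DR and 13.7% in OKS+FoxO6, while the mean TPM of the structural beta subunits Psmb1 to Psmb4 was 255 and 219. Psmb8 and Psmb9 were listed at 0 in OKS+DR at day 0.

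The first comparison asked whether FoxO6 shifts these genes over the course as a whole. No standard gene passed the test of a shift between the arms. With edgeR's quasi-likelihood test on rounded expected counts, a term for each day and p values adjusted over 12139 genes (Benjamini-Hochberg), 0 of 35 genes passed an adjusted p of 0.05, where 13.6% of all genes tested did, 6.69% higher and 6.92% lower in OKS+FoxO6. The unadjusted p was below 0.05 for 0 of the 35 genes, beside 27.8% of all genes tested. DESeq2 and limma also called none of the 35. DESeq2 called 9.91% of all genes tested, and limma only 223 of 14837 genes, so its 0 says little. The smallest adjusted p was 0.262 for Psmd9, a chaperone of the base. Without the libraries of day 7 the smallest adjusted p in edgeR was 0.0605, so 0 of 35 genes passed, where 14.0% of all genes tested did. In that fit 3 of the 35 genes had an unadjusted p below 0.05, and 23 shifts were negative beside 19 with all days. The spread in this test is the departure of single days from a common shift, since no day had a replicate.

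The fitted shifts were small as well as not called. The median shift of the 35 genes was -0.017 (log2, OKS+FoxO6 minus OKS+DR), beside -0.019 over all genes tested. Leaving out single days moved it between -0.063 (without day 7) and 0.033 (without day 0). The median absolute shift was 0.088, beside 0.25. Of the 35 genes, 29 had a shift within 0.2 of zero, as had 41.5% of all genes tested. The 95% interval lay within 0.5 of zero for 27 genes and within 1 for 33. The 2 exceptions to the wider limit were Psmg4 and Psmd10, so a 2-fold shift was outside the interval for every ring, base and lid gene tested.

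By role, the median shift was -0.082 for the 7 alpha genes, -0.061 for the 4 beta genes, -0.003 for the 6 ATPases, 0.12 for the other 3 base genes, 0.086 for the 8 lid genes, 0.42 for the 3 chaperones of the regulatory particle and -0.29 for the 4 of the core. Psma3 had the highest alpha value (0.20, 95% interval -0.10 to 0.49), and Psmc5 the lowest of the rings, base and lid (-0.21, -0.57 to 0.16). None of the 35 genes had arm ranges of TPM that did not overlap, where 3.25% of 14837 genes had. Psmd1 and Psmd8 were higher in OKS+FoxO6 on all 5 days, and no gene was lower on all 5, where 9.86% and 8.58% of the 14837 genes whose mean reached 1 TPM were. The shift of Psmd1 was 0.18 (SE 0.11, adjusted p = 0.333 by edgeR) and that of Psmd8 was 0.17 (SE 0.12, adjusted p = 0.413 by edgeR).

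**Figure D3:**
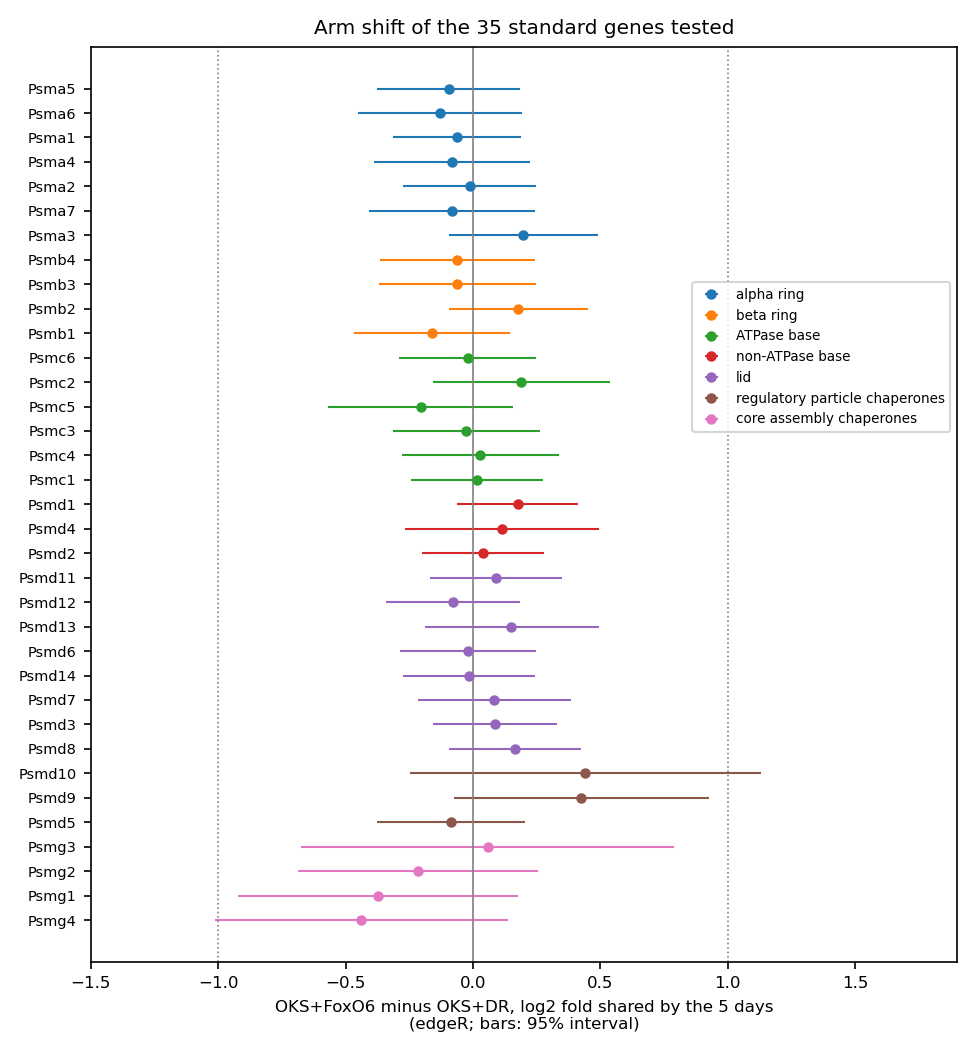
Fitted arm shift of each of the 35 genes tested (log2 fold, OKS+FoxO6 minus OKS+DR, edgeR), coloured by role, with bars for the 95% interval and dotted lines at 2-fold. The bars of the ring, base and lid genes are short and cross zero, and only those of Psmg4 and Psmd10 reach past a dotted line.

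The largest fitted shifts belonged to the chaperones, which had the fewest reads. The core assembly chaperone Psmg4 had the lowest shift, -0.44 (95% interval -1.01 to 0.14, adjusted p = 0.317 by edgeR). It was at 55.8, 43.0, 65.5, 109 and 87.2 TPM in OKS+DR and at 41.6, 47.0, 32.7, 49.0 and 87.8 TPM in OKS+FoxO6. The gap was widest at days 3 and 5, and the arms met at day 7. These values rest on 15 to 40 counts, and the shift was -0.25 without the libraries of day 5, -0.54 without those of day 1 and -0.63 without those of day 7.

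Psmd10 (gankyrin), a chaperone of the base, had the highest shift, 0.44 (95% interval -0.25 to 1.13, adjusted p = 0.410 by edgeR). It was at 28.3, 21.2, 15.2, 9.60 and 16.6 TPM in OKS+DR and at 17.9, 33.0, 15.1, 24.6 and 33.4 TPM in OKS+FoxO6. It was lower in OKS+FoxO6 at day 0 and at day 3 by a small margin, and higher on the other days. The OKS+DR library of day 5 held 9 counts and the OKS+FoxO6 library 34. The shift of Psmd10 was 0.77 without the libraries of day 0, 0.28 without those of day 5 and 0.23 without those of day 7.

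Psmd5, the chaperone of the base with the highest mean, was at 55.4, 57.6, 50.0, 43.3 and 44.9 TPM in OKS+DR and at 58.0, 49.4, 43.3, 35.8 and 73.7 TPM in OKS+FoxO6. The OKS+FoxO6 library of day 7 was its highest and that of day 5 its lowest. Its effective length, over which the level is computed, was 1591 bases in the first and 3277 in the second, the extremes of the 10 libraries. These 2 libraries held 105 and 119 counts of Psmd5. Psmg3, the core assembly chaperone with the lowest mean, was at 41.4, 24.7, 19.4, 21.9 and 14.2 TPM in OKS+DR and at 24.0, 25.8, 19.3, 25.7 and 28.6 TPM in OKS+FoxO6. Its arms were nearly equal on days 1 and 3 and crossed between day 0 and day 7.

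The second comparison took the arms day by day, as differences in log2(TPM + 1) with no test, since each day has 1 library per arm. The median of the 35 genes was -0.051, 0.026, -0.018 and -0.052 on days 0, 1, 3 and 5, with 15, 18, 15 and 15 of 35 genes higher in OKS+FoxO6. The direction at day 0 turned with the scaling, to -0.19 with 6 genes higher in CPM and 0.072 with 24 higher with the length trend removed. A difference past 2-fold was found for 0, 0, 1, 4 and 0 of the 35 genes on days 0, 1, 3, 5 and 7, where 16.7%, 17.3%, 19.9%, 21.5% and 24.5% of 14837 genes passed it. All 5 of these values were of chaperones. At day 3 Psmd9 was lower in OKS+FoxO6 by 1.25 on the log2 scale. At day 5 Psmd10 (1.27) and Psmd9 (1.00) were higher, and Psmg4 (-1.14) and Psmg1 (-1.01) were lower. In CPM the counts were 0, 0, 0, 2 and 2, with none lower, where 12.6%, 13.9%, 15.7%, 18.2% and 20.9% of genes passed. With a pseudocount of 0.1 they were 0, 0, 2, 4 and 2, where 22.5%, 22.5%, 24.45%, 25.7% and 29.9% of genes passed.

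The values of Psmd9 depended on the length used for its transcripts. Psmd9 was at 34.0, 19.3, 47.2, 21.1 and 26.5 TPM in OKS+DR and at 32.0, 24.9, 19.3, 43.2 and 52.5 TPM in OKS+FoxO6. At day 3 it had 42 counts in OKS+DR and 47 in OKS+FoxO6, and the effective length, over which the level is computed, was 1220 and 2502 bases. Over the libraries this length ran from 1220 to 2537 bases for Psmd9 and from 1591 to 3277 for Psmd5, the widest ranges among the 35 genes. In CPM, which does not use length, no standard gene was past 2-fold at day 3. Psmd9 (chr5:123169413-123250131, GRCm38) also shares 1849 of its 7248 exon bases with a lincRNA of the opposite strand, and the strandedness of the counting is not given in the sources used here.

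On day 7 the standard genes were higher in OKS+FoxO6 on balance, with a median of 0.22 and 27 of 35 genes higher. Among them were Psmd4, at 132 TPM in OKS+DR and 238 TPM in OKS+FoxO6, and Psmc2, at 89.8 and 134 TPM. By role the median was 0.24 in the alpha ring, 0.21 in the beta ring, 0.36 for the ATPases, 0.045 for the other base genes, 0.043 in the lid, 0.96 for the chaperones of the regulatory particle and 0.20 for those of the core. The median over all 14837 genes on that day was -0.14, and it was -0.010 in CPM.

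Transcript length moved with this difference. Across genes, the day 7 difference had a Spearman correlation of -0.21 with effective length, with a median of 0.028 in the shortest 25% of genes and -0.42 in the longest 25%. Of the 35 standard genes, 22 were in that shortest class (up to 1434 bases), 10 in the next and 0 in the longest, and their median length was 1287 bases, beside 2607 over all genes tested. With the length trend removed the median of the standard genes was 0.090 with 22 of 35 higher, and in CPM it was 0.35 with 31 higher.

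**Figure D4:**
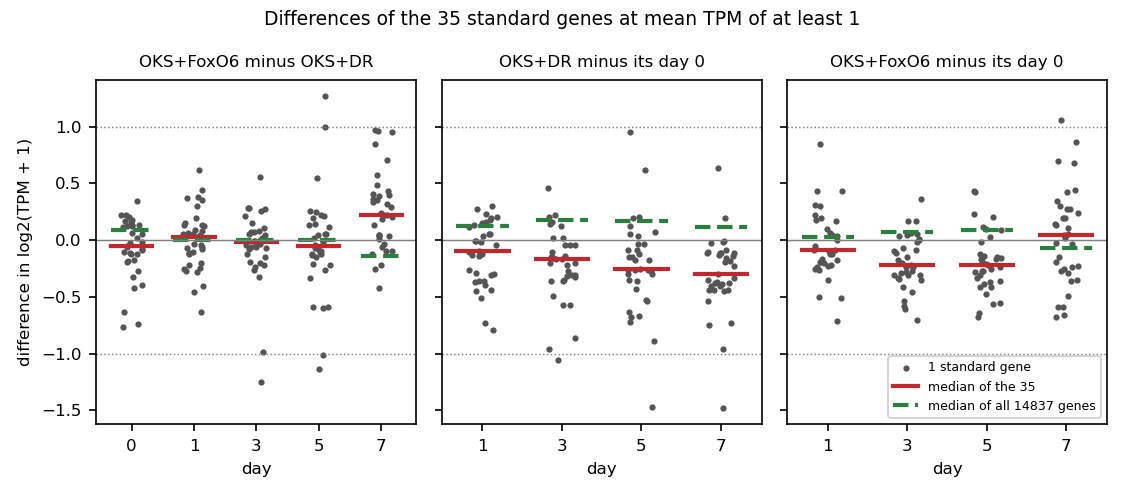
Differences in log2(TPM + 1) for each of the 35 standard genes (grey points, 1 library against 1 library), between the arms by day and against day 0 within each arm, with the median of the 35 genes (solid red) and of all 14837 genes (dashed green) and dotted lines at 2-fold. Between the arms the points centre near zero up to day 5 and at 0.22 on day 7, and in OKS+DR the red line goes from -0.093 at day 1 to -0.30 at day 7.

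Within the arms, most standard genes had lower TPM than at day 0, except at day 7 of OKS+FoxO6. In OKS+DR the median against day 0 was -0.093, -0.17, -0.26 and -0.30 on days 1, 3, 5 and 7, and 22, 27, 27 and 33 of 35 genes were lower. In CPM the median on days 1, 3 and 5 was -0.28, -0.40 and -0.44, and with the length trend removed it was 0.037 on day 1, with 20 genes higher, -0.091 on day 3 and -0.11 on day 5. In OKS+FoxO6 the median in log2(TPM + 1) was -0.087, -0.22, -0.22 and 0.044, and 19 of 35 genes were higher at day 7. Over all 14837 genes the medians were 0.13, 0.18, 0.17 and 0.12 in OKS+DR and 0.029, 0.075, 0.092 and -0.067 in OKS+FoxO6. With the length trend removed the day 7 median of the standard genes was -0.13 in OKS+FoxO6, with 9 genes higher, and -0.27 in OKS+DR, with 6 higher. In CPM their day 7 median in OKS+FoxO6 was 0.16, with 21 higher. Past 2-fold of day 0 were 0, 1, 1 and 1 standard genes in OKS+DR on days 1, 3, 5 and 7, all of them chaperones, where 23.6%, 30.8%, 34.1% and 32.3% of 14837 genes were. In OKS+FoxO6 they were 0, 0, 0 and 1, where 17.2%, 22.4%, 26.5% and 31.2% of genes were, and the gene was Psmg4 at day 7 (1.06). In CPM the counts in OKS+DR were 0, 3, 2 and 2, where 19.8%, 27.0%, 30.3% and 29.5% of genes were past 2-fold. The comparisons of one arm share their day 0 library.

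The third comparison asked whether the genes change along the days, with the arms averaged. Of the 35 genes, 1 passed an adjusted p of 0.05, where 22.4% of all genes tested did, 11.0% rising and 11.4% falling. The gene was Psmd2, the large scaffold of the base (chr16:20651652-20663414, GRCm38), which fell by 0.075 per day on the log2 scale (SE 0.022, adjusted p = 0.0304 by edgeR). It was at 244, 264, 219, 202 and 184 TPM in OKS+DR and at 284, 252, 243, 192 and 188 TPM in OKS+FoxO6. The libraries of days 5 and 7 were below those of days 0 to 3 in both arms. Over 7 days the fitted slope corresponds to a ratio of 0.695.

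Without the libraries of any one day the slope of Psmd2 was -0.062 to -0.104. Its call was lost without day 0 (adjusted p = 0.133 by edgeR), day 1 (0.101), day 3 (0.0546) or day 5 (0.120), with no count filter (0.0591) and with day as a factor (0.132), and it was kept without day 7 (0.0379). Another fit in edgeR had as offset each library's fitted trend of counts over transcript length, with a gene's mean length over the libraries. With this length offset 5 of the 35 genes were called, where 24.9% of all genes tested were. All 5 fell: Psmd2, the lid subunit Psmd7 and the ATPases Psmc1, Psmc2 and Psmc6.

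Slopes were negative for 26 of the 35 genes, with a median of -0.018 per day beside 0.002 over all genes tested. This balance turned with 1 day: without the libraries of day 0, 15 slopes were negative and the median was 0.010, and without those of day 7, 33 were negative and the median was -0.077. Unadjusted p values were below 0.05 for 7 of the 35 genes, beside 34.4% of all genes tested. After Psmd2 these were Psmd1 (-0.069 per day), Psmc2 (-0.062), Psmd7 (-0.085), Psmg4 (0.15), Psmc6 (-0.061) and Psmc1 (-0.058), none of which passed the adjustment in this fit, though the offset for length called Psmc1, Psmc2, Psmc6 and Psmd7, RLE size factors and DESeq2 called Psmd1, and day as a rank and the fit without day 7 called Psmd1 and Psmd7. Psmd7 and the chaperone Psmg3, whose p was larger, had the lowest slopes, both -0.085 per day. Psmd7 was at 295, 230, 199, 184 and 152 TPM in OKS+DR and at 300, 211, 197, 204 and 213 TPM in OKS+FoxO6. Day 0 was highest in both arms. By role the median slope was -0.015 for the alpha genes, 0.002 for the beta genes, -0.038 for the ATPases, -0.069 for the other base genes, -0.030 for the lid genes, -0.028 for the chaperones of the regulatory particle and 0.024 for those of the core.

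**Figure D5:**
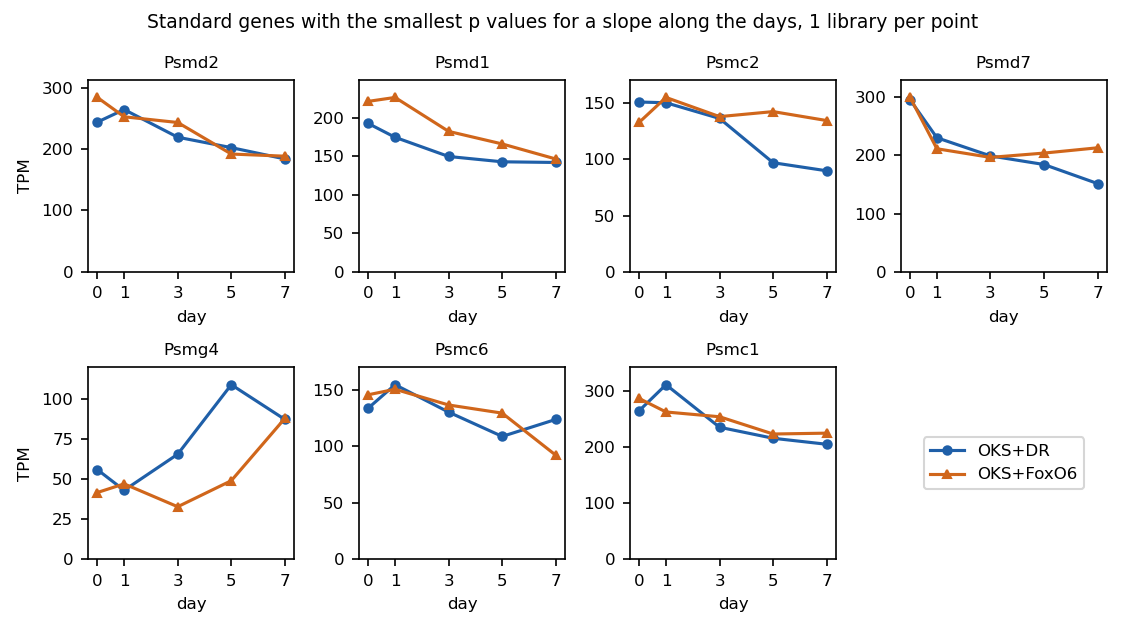
TPM by day of the 7 standard genes with an unadjusted p below 0.05 for a slope along the days (edgeR), in OKS+DR (circles) and OKS+FoxO6 (triangles), 1 library per point, all axes from 0. Psmd2 is the one that passed the adjustment and goes from 244 and 284 TPM at day 0 to 184 and 188 TPM at day 7, and Psmg4 is the one with a positive slope.

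The fourth comparison asked whether the slopes differ between the arms. By edgeR 0 of 35 standard genes and 0.0% of all 12139 genes passed, and 2 of the 35 genes and 1030 of all genes had an unadjusted p below 0.05. DESeq2 called 0 standard genes and 29 genes in all. The difference of the slopes (OKS+FoxO6 minus OKS+DR, log2 per day) was positive for 32 of the 35 genes, with a median of 0.051 beside 0.005 over all genes tested. Without the libraries of day 7 it was positive for 21 genes, with a median of 0.013, and with the length offset for 21 genes, with a median of 0.012.

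The ATPase Psmc2 had the smallest p of these (0.14 per day, SE 0.042, adjusted p = 0.475 by edgeR). It was at 151, 150, 136, 97.0 and 89.8 TPM in OKS+DR and at 133, 155, 138, 142 and 134 TPM in OKS+FoxO6. Its arms lay close up to day 3 and apart on days 5 and 7. The highest fitted difference was that of Psmg3 (0.25 per day, SE 0.11), which rests on 10 to 23 counts per library, and the lowest was that of Psmd11 (-0.026, SE 0.067).

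Other genes of the pathway were tested in the same fits. Of 7 further proteasome genes in the table, among them the maturation factor Pomp, the ubiquitin receptor Adrm1 and the deubiquitinases Uchl5 and Usp14, 0 passed the arm shift and 0 the slope. Of the regulators Nfe2l1, Nfe2l2, Ddi2 and Ngly1, 0 passed either test, with Nfe2l1 at 106 to 142 TPM in OKS+DR and at 112 to 173 TPM in OKS+FoxO6. Among the 3 immunosubunits, Psmb8 (-2.97) and Psmb9 (-3.27) were lower in OKS+FoxO6 (adjusted p of 0.00133 and 0.000887 by edgeR), and all 3 rose along the days. Of 4 activators and 1 inhibitor, Psme2, a subunit of the interferon-induced cap, was lower in OKS+FoxO6 (-0.65, SE 0.18, adjusted p = 0.0361 by edgeR), and Psme1 and Psme2 rose along the days.

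Upstream of the proteasome, 0 of 6 ubiquitin genes and activating enzymes passed the arm shift. With the arms averaged, the activating enzymes Uba1 and Uba6 fell along the days (-0.092 and -0.14 per day). For Uba6 the arms differed. It went from 31.16 TPM at day 0 to 6.98 TPM at day 7 in OKS+FoxO6. In OKS+DR it went from 17.79 to 25.04 TPM, with day 7 its highest library. The difference of its slopes was -0.235 per day (adjusted p = 0.493 by edgeR). Of 8 shuttle and segregase genes 0 passed the arm shift, while Vcp and its cofactor Nploc4 fell along the days (-0.067 and -0.10 per day) and the shuttle Ubqln4 rose (0.12 per day). Proliferation genes moved with the arms: Mki67, Top2a, Ccnb1 and Mcm2 of 6 were lower in OKS+FoxO6, by 0.54 to 0.67 on the log2 scale. Their part in the values of the standard genes was not tested.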

How the data were processed

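RNA was extracted from the 10 samples described above, and the labels name a VAHTS mRNA-seq V3 kit, where the methods name another kit. Per the submitters' processing notes, the authors aligned reads to mm10 with Bowtie2 and quantified genes with RSEM, and the deposited files hold expected counts, TPM and effective lengths (other values, in bases) per gene, with no version given. Expected counts were rounded and tested with edgeR 4.0.16 (TMM, filterByExpr, quasi-likelihood, R 4.3.3), once with arm and day as a factor and once with arm, day and their product. Adjusted p values are Benjamini-Hochberg over all 12139 genes tested, with a threshold of 0.05. Deposited TPM values were compared as log2(TPM + 1), in genes with a mean of at least 1, with a pseudocount of 1, which understates the change of low genes. Scripts were tested on simulated counts.

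Values in every library are given for genes passing a test, for the highest and lowest mean of each role and for the highest and lowest fitted value of each test. Psmg1, Psmd9, Psmd4, Psmd14 and others named beyond this were chosen after their values were seen, as were the patterns searched in promoters and the mean TPM of 20 in the comparison of spread. The members and lists were chosen with earlier results of these data known. Of the standard genes, 8 had counts that were not whole (over 0.005 from an integer), as RSEM gives where it divides reads between transcripts of different genes. Gene positions are from GENCODE M21 (GRCm38). Alternatives were DESeq2 1.42.0, limma 3.58.1, other scalings, filters and offsets, and leaving out each day.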

Additional observations from a re-analysis of the deposited data

How the results depend on the processing

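No alternative called a standard gene in the arm shift or the arm by day test, and in these tests the member medians stayed within the spread of the genes. The slope along the days was the exception: 1 of 35 standard genes was called, and 2 with RLE size factors, 2 with DESeq2, 3 with day as a rank and 5 with the length offset, where 22.6%, 23.2%, 23.9% and 24.9% of all genes were. The count was 0 with no count filter, with day as a factor, in OKS+DR alone and in OKS+FoxO6 alone, where 12.8%, 20.2%, 7.04% and 9.79% of all genes were called. Leaving out the libraries of day 7 gave 3 called standard genes, where 19.4% of all genes tested were called. Leaving out any other day gave 0, where at least 13.1% of all genes tested were called (the lowest share, without day 5). The median slopes ran from -0.077 (without day 7) to 0.010 (without day 0). The median difference between the arms at day 0 was -0.19 in CPM with TMM and 0.072 with the length trend removed, and at day 7 it was 0.35 and 0.090. In OKS+DR the medians against day 0 in CPM were -0.28, -0.40 and -0.44 on days 1, 3 and 5, and with the length trend removed 0.037 on day 1 and -0.11 on day 5. In OKS+FoxO6 the day 7 median was -0.13 with the length trend removed and 0.16 in CPM. The summed TPM rescaled by TMM had a highest over lowest ratio of 1.29. The causes were not tested. Over all genes, the arm shift called 1652 genes, and 168 without the day term, 223 with limma on log2(TPM + 1), of which 73.8% and 63.2% were higher in OKS+FoxO6 beside 49.1%, and 762 and 698 without day 3 and day 5. The slope called 2717 genes, 806 in OKS+DR alone, 1149 in OKS+FoxO6 alone, 1661 without day 1 and 1557 without day 5. The arm by day test called 0 genes, 6 with no filter, 1 without day 1 and 29 with DESeq2. The arm shift pairs the arms by day, and the 168 genes are those called with no replicate block, where 0 standard genes were called. No other pairing was possible because each group has 1 library. Depth limits the chaperones most, which had as few as 9 counts in a library.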
